A study of Homo sapiens with 6 samples.

Results

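Replication-dependent histone genes were examined in RL cells, an established human B-cell lymphoma line carrying the t(14;18) translocation, with and without LY317615 (enzastaurin), which inhibits the beta form of protein kinase C. The members were the genes whose current symbol starts with H1- and a number, H2AC, H2BC, H3C or H4C and that had a probe set annotated to that gene alone, pseudogenes left out. There were 60 such genes among 18417 genes in all. The probe sets of H4C14 and H4C15 held identical values in all 6 arrays and were counted once, so counts below are over 59 measurements. Of these, 55 belong to the genes formerly named HIST1, HIST2 or HIST3, which lie in clusters. The other 4 are H1-7, H1-8, H1-10 and H4C16, which match the symbol pattern but lie outside the clusters.

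Total RNA from 3 untreated samples and 3 samples given LY317615 was measured on Affymetrix Gene 1.0 ST arrays, with 48 h in every sample title. The labels give the dose as 2.5 mM, a unit that could not be checked here, and no vehicle is named for the untreated samples. RL is a single cell line. Nothing in the labels states that replicates are separate cultures, and p-values then reflect array-to-array spread alone, which may be technical. These are bulk samples, in which fewer cells making a messenger and less of it per cell cannot be told apart. Values are log2 of the deposited intensity, and a difference is LY317615 minus untreated. A gene was called where limma with Benjamini-Hochberg adjustment over all genes gave an adjusted p below 0.05.

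The 6 arrays had median intensities between 56.7 and 61.4, and their number limits the precision. Over all genes, 14.2% were called higher and 21.4% lower, the median difference was 0.02, and the groups of arrays did not overlap in 49.8%. The B-cell markers measured (5 of 6 listed) lay between the 95.2nd and 98.9th percentile of untreated intensity. The 11 measured markers of T cells, monocytes, erythroid cells and fibroblasts lay between the 2.27th and 48.9th percentile. Of the B-cell markers CD22 (-1.16), MS4A1 (-0.81), PAX5 (-0.48) and CD79A (-0.28) fell and CD79B (-0.01) was not called. Of the others CD14 (0.50), CD3E (0.45), CSF1R (0.37) and COL1A2 (0.27) rose and 7 were not called, with all 11 between 2.81 and 6.35 on the log2 scale in untreated and between 2.76 and 6.59 in treated arrays. The part of these differences in the histone results was not tested. Treated replicate 3 stood apart: its weight in limma's array-weight model was 0.376, where the rest had 1.04 to 1.51.

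Core histones H2A, H2B, H3 and H4 form the protein spool of the nucleosome, and linker histone H1 binds where DNA enters and leaves it. Their replication-dependent genes are small, intronless and present in many copies, and they are transcribed mainly in S phase, when new chromatin is built. Their messengers end in a stem-loop in place of a poly(A) tail. The stem-loop is bound by SLBP, the end is cut by a complex that includes the U7 small nuclear RNA, and the RNA is degraded when replication stops. Many H2A and H2B genes lie head to head and share the promoter between them.

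The stretches before the start site of 6 sets of genes are shown because these genes moved in different directions. The H2BC21/H2AC20 stretch lies between a gene that fell and a gene that rose, the H2AC17/H2BC17 stretch lies between genes that both fell, and the other 4 belong to the H3 and H4 genes with the largest called fall and the largest called rise for which a sequence was at hand. Sequences are from RefSeq (GRCh38.p14), read 5′ to 3′ on the strand given, and each ends just before the start site of the gene named last. Capitals mark the octamer ATTTGCAT, the CCAAT box, the TATA box TATAAA and GGTCCG, on either strand. GGTCCG is part of the H4 promoter element that the zinc-finger factor HINFP binds, and the octamer is bound by POU-domain factors.
H2BC21/H2AC20 (chr1:149886683-149886917, plus strand): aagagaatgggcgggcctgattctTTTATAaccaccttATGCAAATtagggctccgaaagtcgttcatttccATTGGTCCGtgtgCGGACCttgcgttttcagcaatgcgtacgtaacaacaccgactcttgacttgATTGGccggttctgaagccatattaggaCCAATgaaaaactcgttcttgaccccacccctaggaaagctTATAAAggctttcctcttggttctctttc
H2AC17/H2BC17 (chr6:27893186-27893424, plus strand): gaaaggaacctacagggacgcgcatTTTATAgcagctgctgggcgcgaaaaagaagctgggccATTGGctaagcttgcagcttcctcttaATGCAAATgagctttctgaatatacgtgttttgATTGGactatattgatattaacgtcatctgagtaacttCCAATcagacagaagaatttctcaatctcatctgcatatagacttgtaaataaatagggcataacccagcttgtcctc
H3C10 (chr6:27809801-27810050, plus strand): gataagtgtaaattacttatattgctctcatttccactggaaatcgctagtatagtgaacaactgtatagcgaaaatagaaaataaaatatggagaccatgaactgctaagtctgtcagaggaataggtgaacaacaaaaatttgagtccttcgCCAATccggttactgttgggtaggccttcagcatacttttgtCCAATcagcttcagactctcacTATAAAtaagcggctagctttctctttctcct
H3C2 (chr6:26032100-26032349, minus strand): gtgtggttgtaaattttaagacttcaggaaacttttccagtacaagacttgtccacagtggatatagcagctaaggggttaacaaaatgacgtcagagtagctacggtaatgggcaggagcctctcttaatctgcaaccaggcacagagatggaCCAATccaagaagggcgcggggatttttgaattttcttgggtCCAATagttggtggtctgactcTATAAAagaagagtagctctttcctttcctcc
H4C8 (chr6:26285535-26285784, minus strand): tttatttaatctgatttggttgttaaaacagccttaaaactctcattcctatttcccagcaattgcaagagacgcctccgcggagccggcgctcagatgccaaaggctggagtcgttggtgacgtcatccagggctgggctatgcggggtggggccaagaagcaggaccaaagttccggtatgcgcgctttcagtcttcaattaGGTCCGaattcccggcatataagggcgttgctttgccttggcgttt
H4C13 (chr6:27873535-27873784, minus strand): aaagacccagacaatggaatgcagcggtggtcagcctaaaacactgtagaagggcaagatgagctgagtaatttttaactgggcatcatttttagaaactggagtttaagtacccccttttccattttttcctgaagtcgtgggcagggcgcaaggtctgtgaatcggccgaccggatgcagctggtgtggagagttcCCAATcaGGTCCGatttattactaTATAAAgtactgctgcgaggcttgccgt

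Within the 250 bases before the start, the octamer was found in 10 of 13 H2A genes and 13 of 16 H2B genes that had a sequence, against 1.66% of 27305 genes in the table. It was found in none of the H1, H3 and H4 members (0 of 26). GGTCCG was found in 10 of 11 H4 genes, the exception being H4C7, against 9.33% of all genes. CCAAT was present in all 13 H2A, all 16 H2B and all 6 H3 genes, in 8 of 9 H1 genes and in 3 of 11 H4 genes, against 33.0% of all genes. TATAAA was present in 10 of 13 H2A, 12 of 16 H2B, 4 of 6 H3, 5 of 11 H4 and 4 of 9 H1 genes, against 11.1%. GGTCCG and CCAAT share 2 bases where they overlap in the H2BC21/H2AC20 stretch. Head-to-head H2A and H2B genes share most of these bases, so their counts are not separate. A match describes letters in a window and says nothing of binding.

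Genes with the octamer or with GGTCCG went both ways. The octamer stood before 4 of the 5 H2B genes that fell and before the 1 that rose. TATAAA stood before all 5 H2B genes that fell and not before H2BC7, which rose. Among H2A genes TATAAA stood before all 5 that rose and the 2 that fell. GGTCCG, present in 10 of 11 H4 genes, stood before all 5 H4 genes that rose and had a sequence, and before H4C8, which fell. H4C14 and H4C15 are each counted here, though they are 1 measurement and were lower on a probe set shared by both. TATAAA stood before 2 of these 5 and CCAAT before 1, and H4C8 had neither. Whether letters and direction go together was not tested.

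Histone genes moved in both directions after LY317615, with more rises than falls. Of the 59 measurements, 33 were called, against 35.7% of all genes. Of them 23 rose (39.0% of the 59, against 14.2% of all genes) and 10 fell (16.9%, against 21.4%). The median difference was 0.19, against 0.02 over all genes, and the groups of arrays did not overlap in 38 of the 59, against 49.8% of all genes. The range ran from -1.21 for H3C10 to 0.75 for H3C11, both of them H3 genes of the HIST1 cluster. Without treated replicate 2 the median was 0.11.

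The counts by family were as follows. H3 had the highest median (0.46, with 5 of 8 higher and 2 lower), followed by H1 (0.35, with 6 of 9 higher and 0 lower), H4 (0.26, with 6 of 12 higher and 1 lower) and H2A (0.18, with 5 of 14 higher and 2 lower). H2B was the only family with a median below 0 (-0.15), with 1 of 16 higher and 5 lower. The order was not tested, since genes of a family are close copies and are not replicates. The H2A median was 0.09 without treated replicate 2 and also without the dimmest 30% of genes, and 0.30 after cyclic loess. Without the dimmest genes the H3 and H2B medians were 0.28 and -0.28, and after cyclic loess the H4 median was 0.47.

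**Figure D1:**
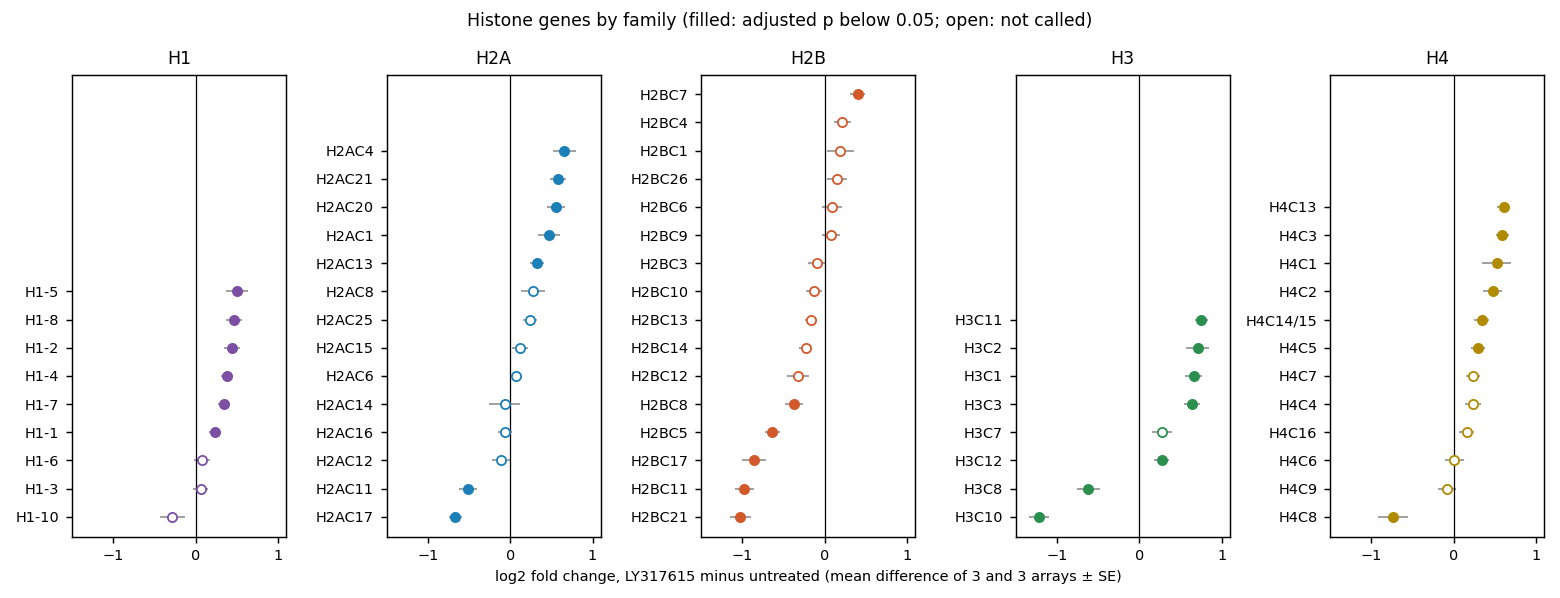
Log2 fold change of each of the 59 histone measurements (LY317615 minus untreated, 3 arrays each, bars are SE), in a panel for each family; filled points passed an adjusted p of 0.05 in limma. H2B holds 5 of the 10 falls, and H3C10 lies lowest at -1.21.

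The family medians were also taken array by array. Relative to the untreated mean of each gene, the H3 median was 0.44, 0.46 and 0.49 in treated replicates 1, 2 and 3. The H4 median was 0.26, 0.35 and 0.18, and the H1 median 0.32, 0.32 and 0.21. H2A read 0.10, 0.22 and 0.14, and H2B read -0.16, -0.12 and -0.21. The untreated arrays lay between -0.11 and 0.05 in all 5 families. Treated replicate 3 was the treated array nearest to the untreated mean in 16 of the 33 called genes, against 11 for replicate 2 and 6 for replicate 1. Without that array 21 members rose and 9 fell (median 0.18), and with limma's array weights 25 rose and 10 fell (median 0.18).

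The differences were set beside brightness, with all genes cut into 5 equal bins by mean intensity over the 6 arrays. In the brightest bin, 9.47% rose, 47.6% fell and the median was -0.21. The 20 histone genes in that bin had 13 rises and 2 falls, with a median of 0.36. In the middle bin and the next brighter one, the 27 histone genes had 7 rises and 8 falls, with medians of -0.06 and -0.01, against 0.11 and -0.14 over all genes there. In the middle bin 3 of 13 rose and 4 fell, against 24.4% and 15.4% of its genes, and in the next 4 of 14 rose and 4 fell, against 12.5% and 37.0%. The 12 members in the dimmest bins (3 and 9) had 3 rises and no falls, with medians of 0.19 and 0.23 against 0.06 and 0.15. Of all genes in those bins 6.73% and 18.1% rose and 2.36% and 4.70% fell. Whether a dim gene was above background was not assessed, for want of detection calls.

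The somatic linker histone genes H1-2, H1-4 and H1-5 rose. H1-4 (formerly HIST1H1E, probe set 8117377), which had the brightest H1 probe set, read 11.76, 11.75 and 11.72 in untreated cells and 12.16, 12.18 and 12.05 in treated cells. The groups did not overlap, and the difference was 0.39 ± 0.07 (SE, adjusted p = 0.00411 in limma). H1-5 (formerly HIST1H1B, probe set 8124527) read 11.09, 10.96 and 11.14 against 11.78, 11.68 and 11.24. Treated replicate 3 was only slightly above the untreated arrays here. The difference was 0.50 ± 0.13 (SE, adjusted p = 0.0188 in limma), and the call was lost when untreated replicate 2 (0.0616), treated replicate 1 (0.0609) or treated replicate 2 (0.0505) was left out.

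H1-2 went from 8.18 ± 0.09 to 8.61 ± 0.16 (SD, n = 3), a difference of 0.44 ± 0.10 (SE). H1-1 rose by 0.23 ± 0.07 (SE, adjusted p = 0.0337 in limma), a call lost in 9 of 14 refits (adjusted p up to 0.307), among them those without any 1 untreated replicate and without treated replicate 1 or 2. H1-3 and the testis gene H1-6 were not called, at 0.06 and 0.08. Outside the clusters, the oocyte gene H1-8 (formerly H1FOO, probe set 8082560) read 6.03, 5.74 and 5.89 against 6.23, 6.33 and 6.49, without overlap, a difference of 0.46 ± 0.10 (SE, adjusted p = 0.00732 in limma). The spermatid gene H1-7 rose by 0.35 ± 0.08 (SE). H1-10, a replication-independent linker histone, was not called, at -0.28 (adjusted p = 0.182 in limma). Its untreated arrays ranged from 7.49 to 8.21.

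H2A genes split. H2AC4 (formerly HIST1H2AB, probe set 8124391) read 7.33, 7.22 and 7.27 in untreated cells against 7.91, 8.25 and 7.63 in treated cells. The treated arrays lay apart from each other but all above the untreated ones, and the difference was 0.66 ± 0.14 (SE, adjusted p = 0.00657 in limma). H2AC21 (formerly HIST2H2AB, probe set 7919642), which had the brightest H2A probe set over the 6 arrays, read 11.13, 11.04 and 10.89 against 11.70, 11.66 and 11.46. All 3 treated arrays were again higher, by 0.59 ± 0.10 (SE, adjusted p = 0.00199 in limma). Its neighbour H2AC20 rose by 0.56 ± 0.11 (SE), from 11.15, 11.01 and 10.90 to 11.71, 11.67 and 11.36. These values lay close to those of H2AC21 in every array, so both rises may not be separate readings. A probe set annotated to H2AC18, H2AC19, H2AC20 and H2AC21 together was at 0.22 and not called.

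H2AC17 (formerly HIST1H2AM, probe set 8124540) had the largest fall of the family, from 7.26, 7.26 and 7.32 to 6.67, 6.70 and 6.48. These groups lay well apart, with a difference of -0.67 ± 0.08 (SE, adjusted p = 0.000473 in limma). H2AC11 (formerly HIST1H2AG, probe set 8117535) read 8.80, 8.89 and 8.96 against 8.27, 8.25 and 8.61. Treated replicate 3 was closest to the untreated arrays, and the difference was -0.51 ± 0.11 (SE, adjusted p = 0.00659 in limma). That call was lost under cyclic loess, a normalisation that levels differences along the intensity range (-0.32, adjusted p = 0.101 in limma).

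H2AC13 rose by 0.33 ± 0.09 (SE), a call lost when untreated replicate 3 (adjusted p = 0.0764 in limma), treated replicate 1 (0.0535) or treated replicate 2 (0.0513) was left out. The testis gene H2AC1 rose by 0.47 ± 0.13 (SE) from a dim level (percentile 17.1 of all genes). That call was lost on leaving out untreated replicate 2 (0.0785), treated replicate 1 (0.0719) or treated replicate 3 (0.0578), and after cyclic loess (0.0782). The other 7 H2A genes were not called and ran from -0.11 to 0.28.

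H2B genes had 5 falls and 1 rise. H2BC21 (formerly HIST2H2BE, probe set 7919637) read 8.73, 8.83 and 9.05 in untreated cells against 7.60, 8.04 and 7.89 in treated cells. All treated arrays lay below all untreated ones, and the difference was -1.02 ± 0.13 (SE, adjusted p = 0.000463 in limma), a level 2.03-fold lower. H2BC11 (formerly HIST1H2BJ, probe set 8124484) read 7.01, 7.10 and 7.27 against 6.37, 6.07 and 6.01. Here too the groups were apart, with a difference of -0.98 ± 0.11 (SE, adjusted p = 0.000340 in limma).

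H2BC17 fell by 0.86 on the log2 scale, with an SE of 0.14. H2BC5 (formerly HIST1H2BD) went from 9.34 ± 0.11 to 8.71 ± 0.11 (SD, n = 3), a difference of -0.64 ± 0.09 (SE). H2BC8 fell by 0.37 on the log2 scale, and its call was lost in 6 of 14 refits (adjusted p from 0.0559 to 0.0774), namely without any 1 untreated replicate, without treated replicate 1 or 3 and after cyclic loess. The 1 rise was that of H2BC7 (formerly HIST1H2BF, probe set 8117395), from 9.06, 8.95 and 8.85 to 9.35, 9.47 and 9.23. Its groups did not overlap, with a difference of 0.40 ± 0.09 (SE, adjusted p = 0.00979 in limma).

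H2BC14 (formerly HIST1H2BM, probe set 8117594), which had the brightest H2B probe set, read 10.92 ± 0.09 against 10.69 ± 0.08 (SD, n = 3). The lowest untreated array (10.83) was above the highest treated array (10.78), yet the difference of -0.23 ± 0.08 (SE) was just outside the threshold (adjusted p = 0.0517 in limma). It was called lower without treated replicate 1 (0.0480), with a trended variance prior (0.00347), with equal array medians (0.0275) and without the dimmest 30% of genes (0.0278), while after cyclic loess it was at -0.01 (0.897). The other 9 H2B genes, among them the testis gene H2BC1, were not called and ran from -0.32 to 0.21.

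H3 genes held both the largest rise and the largest fall. H3C11 (formerly HIST1H3I, probe set 8124531), which had the brightest H3 probe set, read 11.49, 11.47 and 11.32 in untreated cells against 12.16, 12.26 and 12.12 in treated cells. The groups lay far apart relative to their spread, and the difference was 0.75 ± 0.08 (SE, adjusted p = 0.000236 in limma). H3C2 (formerly HIST1H3B, probe set 8124388) read 9.39, 9.71 and 9.42 against 10.30, 10.42 and 9.93. Treated replicate 3 was the lowest treated array, still above all untreated ones, and the difference was 0.71 ± 0.14 (SE, adjusted p = 0.00452 in limma). H3C1 and H3C3 rose by 0.66 ± 0.10 and 0.64 ± 0.09 (SE).

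H3C10 (formerly HIST1H3H, probe set 8117589) read 9.13, 9.12 and 9.35 against 8.01, 8.20 and 7.75. No treated array came near the untreated ones, and the difference was -1.21 ± 0.12 (SE, adjusted p = 0.000167 in limma), a level 2.32-fold lower. H3C8 (formerly HIST1H3G, probe set 8124440) read 6.96, 7.17 and 7.22 against 6.27, 6.82 and 6.39. Treated replicate 2 came closest to the untreated arrays, and the difference was -0.62 ± 0.14 (SE, adjusted p = 0.00925 in limma).

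H3C12 rose by 0.27, and its adjusted p of 0.0499 in limma was the highest among the called members. The call was lost in 8 of 14 refits (adjusted p up to 0.149), among them those without any 1 untreated replicate and without treated replicate 1 or 2. H3C7 was not called, at 0.28 (adjusted p = 0.115 in limma). The H3 genes of the HIST1 cluster encode the same protein, so the H3C10 and H3C11 messengers that moved apart are read into the same histone.

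Of 12 H4 genes 6 rose, and they too encode nearly all the same protein. H4C3 (formerly HIST1H4C, probe set 8117368), which had the brightest H4 probe set, read 11.19, 11.22 and 11.11 against 11.81, 11.81 and 11.66. The difference was 0.59 ± 0.08 (SE, adjusted p = 0.000683 in limma) and the groups did not overlap. H4C13 (formerly HIST1H4L, probe set 8124534) read 8.84, 8.91 and 8.81 against 9.50, 9.54 and 9.33. All treated arrays were higher, by 0.60 ± 0.08 (SE, adjusted p = 0.000787 in limma).

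H4C2 rose by 0.47 ± 0.12 (SE). H4C1 and H4C5 rose by 0.52 and 0.29, and H4C14/H4C15 by 0.34. A further probe set, annotated to H4C14 and H4C15 together, was called lower at -0.57, so the direction of these genes is not settled. The H4C1 call was lost in 7 of 14 refits (adjusted p up to 0.131), including those that left out untreated replicate 1, untreated replicate 2 or any treated array. H4C5 was lost in 5 (up to 0.0867), including those that left out untreated replicate 1, untreated replicate 2, treated replicate 1 or treated replicate 3. H4C14/H4C15 was lost when untreated replicate 2 (0.0701) or treated replicate 1 (0.0612) was left out.

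H4C8 (formerly HIST1H4H, probe set 8124448) was the only H4 gene that fell on a probe set of its own, from 8.96, 9.12 and 9.30 to 8.77, 8.41 and 7.99. The treated arrays were spread widely and replicate 1 lay close to the untreated ones. The difference was -0.74 ± 0.18 (SE, adjusted p = 0.0125 in limma). The other 5 H4 genes, H4C4, H4C6, H4C7, H4C9 and H4C16, ran from -0.08 to 0.24 and were not called.

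**Figure D2:**
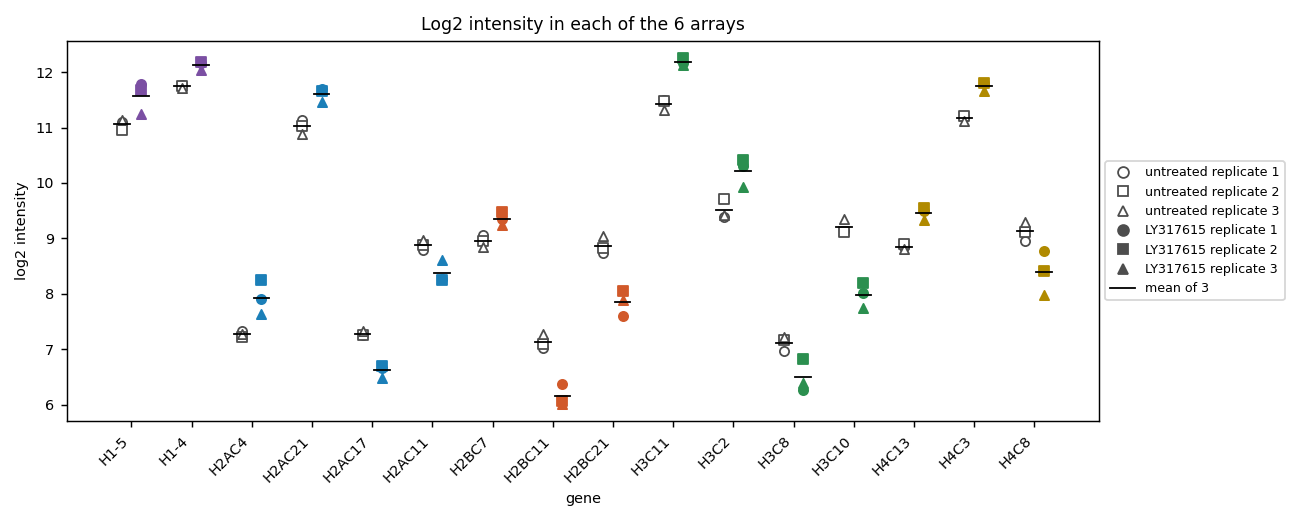
Log2 intensity of 16 named histone genes in each array; open symbols are untreated, filled symbols are LY317615, the symbol shape is the replicate number and black bars are means of 3. All genes shown were called, so groups that lie apart follow largely from that choice. Among all genes the groups did not overlap in 49.8%. The treated arrays lie wholly above or wholly below the untreated ones here, as with H3C11 (12.12 to 12.26 against 11.32 to 11.49) and H3C10 (7.75 to 8.20 against 9.12 to 9.35). H2BC14, which was not called, is not drawn.

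Some cluster genes are known to give polyadenylated messengers besides the stem-loop form, and 6 of them were examined. This subset is not a full list and was picked by hand with earlier results of these data known. The counts depend on that choice, and the members outside the subset may include more such genes. Of the 6, 3 fell (H2BC21, H4C8 and H2BC5) and 0 rose, against 21.4% and 14.2% of all genes, with a median of -0.48 (-0.27 after cyclic loess). All but H2BC4 (percentile 54.7) were bright, from percentile 81.3 (H2BC21) to 89.1 (H2AC6) of untreated intensity. Among all genes 47.6% fell in the brightest bin and 37.0% in the next, so 3 falls of 6 lie near the share for bright genes. H2BC12 was at -0.32 (adjusted p = 0.0868 in limma), H2AC6 at 0.07 and H2BC4 at 0.21, and none of the 3 was called. H2BC12 was called lower without treated replicate 2 (-0.44) and with a trended variance prior, H2BC4 was called higher without treated replicate 1 (0.32), and H2AC6 after cyclic loess (0.29). The other 53 members had 23 rises and 7 falls, with a median of 0.24. Among the H2B genes outside the subset, 3 of 12 fell and 1 rose, with a median of -0.12. Per array the subset median was -0.30, -0.32 and -0.70 in treated replicates 1, 2 and 3. The forms were not told apart here, since which part of each transcript the probes read is not given in the sources used here.

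Position in the clusters was examined by gene order, with members at most 300 kb apart taken as a run. The longest run on chromosome 6 held 31 members, of which 13 rose and 4 fell, against 14.2% and 21.4% of all genes, with a median of 0.24. The 4 falls in chromosomal order were H2BC5, H2BC8, H3C8 and H4C8. The next run, of H2BC11, H2AC11, H2BC12, H4C9 and H2AC12, had 2 falls and no rise among 5 members. All 5 differences were below 0 (median -0.32), as were 8700 of all 18417 genes. After cyclic loess that median was -0.12 and H2AC11 was not called. The third run on chromosome 6 held 13 members, with 5 rises and 3 falls (median -0.06, and -0.12 with equal array medians or -0.01 after cyclic loess), and it placed H3C10 at -1.21 and H3C11 at 0.75 in the same run. On chromosome 1, the HIST2 members had 3 rises and 1 fall, and the HIST3 genes H2AC25 and H2BC26 were not called. The same shares of all genes, 14.2% higher and 21.4% lower, stand beside each of these runs.

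**Figure D3:**
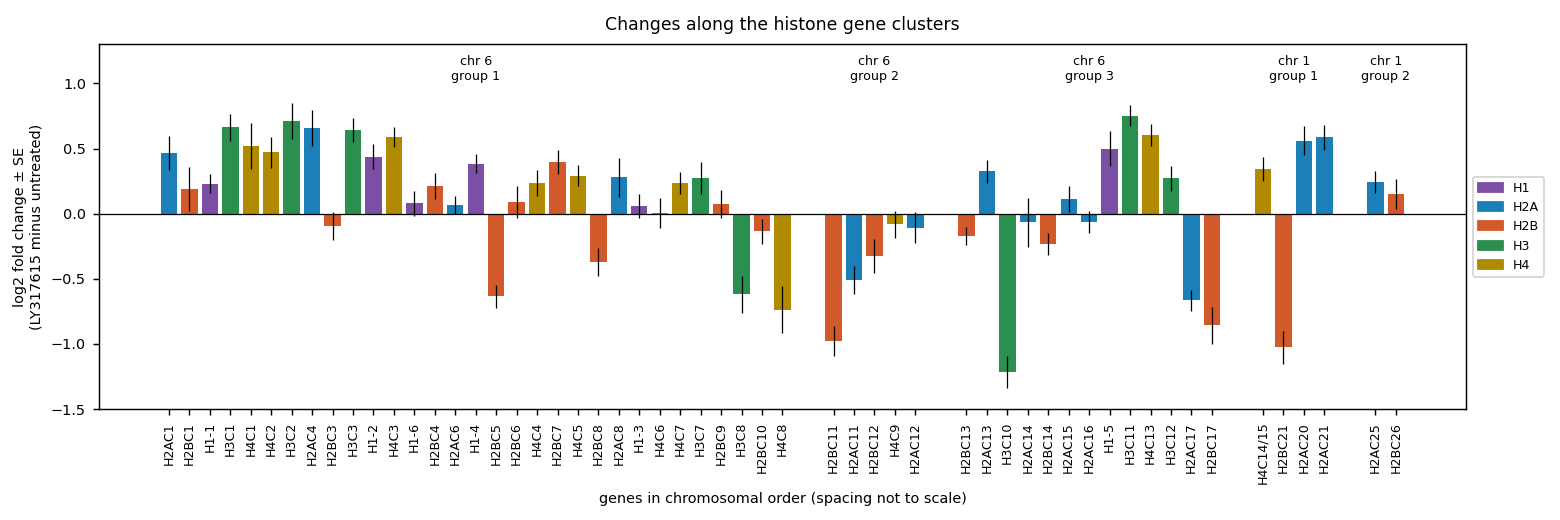
Log2 fold change (bars, with SE) of the cluster members in chromosomal order, coloured by family; the horizontal spacing is not to scale. H3C10 and H3C11, the lowest and highest bars, stand in the same run, and all 5 genes of the second run on chromosome 6 lie below 0. Of all 18417 genes, 8700 lie below 0.

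In 9 pairs of neighbouring H2A and H2B genes the start sites faced away from each other with 214 to 247 bases between them. The H2A gene had the higher difference in 8 of the 9, and the median of H2A minus H2B was 0.28. The signs were the same in 6 pairs and opposite in 3. In the H2AC20/H2BC21 pair, whose shared stretch is printed above, H2AC20 rose by 0.56 and H2BC21 fell by 1.02, so their differences lay 1.58 apart. In the H2AC17/H2BC17 pair both fell, and so did both genes of the H2AC11/H2BC11 pair. In the H2AC8/H2BC8 pair H2BC8 was lower and H2AC8 was not called (0.28), and in the H2AC13/H2BC13 pair H2AC13 was higher and H2BC13 was not called (-0.17). The exception was H2AC6/H2BC4, at 0.07 and 0.21. Differences within pairs were not tested, since the genes of a pair are read by different probe sets. Whether the probes also take signal from close copies was not checked, for want of probe sequences.

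**Figure D4:**
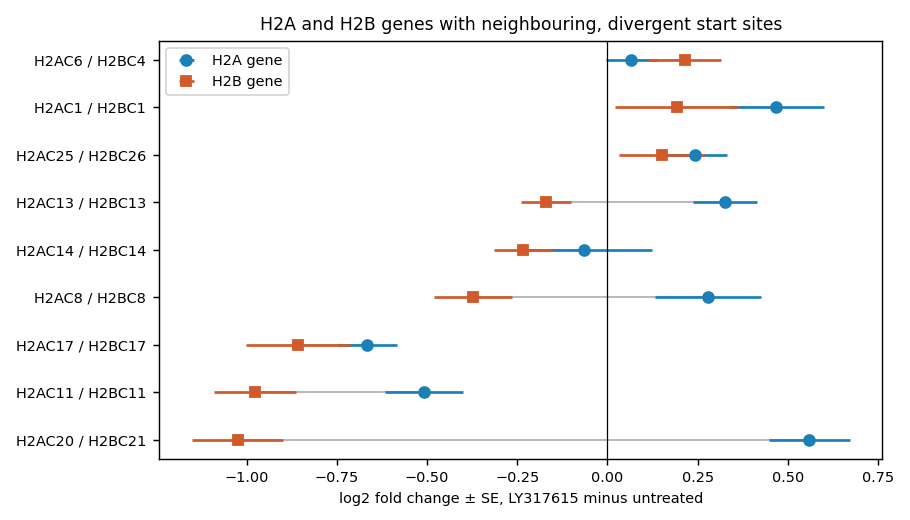
Log2 fold change ± SE of both genes of 9 divergent H2A and H2B pairs; circles are H2A genes, squares are H2B genes and grey lines join a pair. The H2A gene lies to the right in 8 of 9 pairs, and the gap is widest for H2AC20/H2BC21.

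Histone genes are close copies, and 20 further probe sets were annotated to a histone gene together with other genes. They held 17 distinct sets of values. Fitted over all probe sets, of which 10.5% were called higher and 14.9% lower, 3 of the 17 rose, 4 fell and 10 were not called. These probe sets are the sole readout here of 12 genes, H2AC7, H2AC18, H2AC19, H2BC15, H2BC18, H3C4, H3C6, H3C13, H3C14, H3C15, H4C11 and H4C12. The 3 that rose all read H3C13, H3C14 and H3C15 of the HIST2 cluster, at 0.32, 0.48 and 0.67.

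Some shared probe sets went against the single-gene ones. H4C14 and H4C15 read 0.34 on their own probe sets but -0.57 ± 0.09 (SE, adjusted p = 0.00625 in limma) on a probe set annotated to both. H2BC21 read -0.96 ± 0.11 on a probe set shared with H2BC18 and a pseudogene, but 0.27 ± 0.09 (SE, adjusted p = 0.0652 in limma, not called) on one shared with other pseudogenes. H2BC18 with that first pseudogene read -1.03 on one probe set and 0.36 (adjusted p = 0.0547 in limma, not called) on another. With the pseudogene FCGR1BP, H2BC18 was at 0.31 (adjusted p = 0.0779 in limma, not called). H3C10, which fell on its own probe set, was at 0.15 and not called on a probe set shared with H2AC13, a gene that rose. H3C11, which rose on its own probe set, was at -0.08 (adjusted p = 0.431 in limma, not called) on a probe set shared with H3C6. That probe set, the sole readout of H3C6, was very dim, between 2.98 and 3.15 in the 6 arrays. H2AC20 and H2AC21, called higher on their own probe sets, were at 0.22 ± 0.08 (SE, adjusted p = 0.0823 in limma, not called) on a probe set shared with H2AC18 and H2AC19. A probe set of H2BC5, H2BC12, H2BC17 and H2BC12L fell by 0.33 on the log2 scale. Called changes in both directions were thus seen for H4C14 and H4C15, while for H2BC18 and H2BC21 the readings above 0 were not called. Their shared probe sets included pseudogenes whether the reading was above or below 0.

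Genes that make and process histone messengers were examined as a fixed list. Of 34 measured, 20 fell (58.8%, against 21.4% of all genes) and 0 rose, with a median of -0.33 (-0.13 after cyclic loess). After cyclic loess 14 fell and 2 rose. Most of these genes were bright, with untreated means from 6.66 (ZNF473) to 11.19 (CPSF2). Among all genes 47.6% fell in the brightest bin and 37.0% in the next, so 21.4% is a low yardstick here. The list was not compared with genes of like brightness. NPAT, the coactivator that gathers at the histone clusters, read 9.82, 9.87 and 9.88 in untreated cells against 9.22, 9.20 and 9.09 in treated cells. These groups did not overlap, and the difference was -0.69 ± 0.07 (SE, adjusted p = 0.000234 in limma). HINFP, which activates H4 genes, read 8.61, 8.73 and 8.77 against 7.86, 7.89 and 7.77, a difference of -0.87 ± 0.08 (SE, adjusted p = 0.000113 in limma).

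ERI1, an exonuclease that trims the stem-loop and takes part in decay of histone messengers, read 9.63, 9.75 and 9.69 against 8.88, 8.60 and 8.64. It had the largest fall of the list, -0.99 ± 0.09 (SE). SLBP, the stem-loop binding protein, showed overlapping groups and was not called (9.45 ± 0.07 against 9.43 ± 0.09, SD, n = 3), with a difference of -0.03 ± 0.08 (SE, adjusted p = 0.827 in limma). Among factors of the octamer and CCAAT box, NFYA, NFYB and NFYC, which bind CCAAT, fell by 0.32, 0.38 and 0.33 on the log2 scale, and the octamer coactivator POU2AF1 was not called, at 0.05. After cyclic loess NFYA and NFYC were not called (-0.13 and -0.12). CCNE1, CCNE2, CDK2, CCNA2 and E2F1, which drive entry into and passage through S phase, ran from -0.06 to 0.18 and were not called. CCNE2, the highest of them, was called higher without treated replicate 3 (0.34) and after cyclic loess (0.40).

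Histone chaperones, which carry histones to DNA, were taken next. Of 34 measured, 17 fell (50.0%, against 21.4% of all genes) and 1 rose, with a median of -0.27 (-0.07 after cyclic loess). Most of these genes were bright, with untreated means from 6.68 (TONSL) to 12.87 (NPM1). Among all genes 47.6% fell in the brightest bin and 37.0% in the next, so much of the gap to 21.4% goes with brightness. The list was not compared with genes of like brightness. SUPT6H, a chaperone that travels with RNA polymerase, read 10.39, 10.36 and 10.37 against 9.59, 9.44 and 9.46, a difference of -0.88 ± 0.08 (SE). The replicative helicase gene MCM2, whose protein also binds H3 and H4, read 9.98, 10.14 and 9.99 against 9.38, 9.25 and 9.01, a difference of -0.82 ± 0.10 (SE). The single rise was CABIN1, at 0.36, named after its value was seen. Its call was lost in turn without each array except treated replicate 3 (adjusted p from 0.0525 to 0.0643 in limma). CHAF1A and CHAF1B, which deposit histones at replication forks, were not called, at -0.29 and 0.21, though CHAF1A was called lower without treated replicate 1 (-0.40), with a trended variance prior, with equal array medians and without dim genes. After cyclic loess this list had 7 falls and 5 rises.

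Replication-independent histones are made outside S phase as well. Of 12 measured, 4 rose (33.3%, against 14.2% of all genes) and 0 fell, with a median of 0.11 (0.25 after cyclic loess and 0.05 with equal array medians). The rises were H1-8 and H1-7, described above, H2AJ at 0.38 ± 0.10 (SE) and MACROH2A2 at 0.27 ± 0.09 (SE). All 4 were of middle or low brightness, with untreated means from 5.27 (H2AJ) to 6.40 (H1-7). Among all genes 24.4% rose in the middle bin and 18.1% in the next dimmer one. H2AJ was not called without untreated replicate 2 (adjusted p = 0.0661 in limma) or after cyclic loess (0.0502). MACROH2A2 lost its call without any 1 array other than untreated replicate 1 (adjusted p from 0.0572 to 0.163 in limma), with the replicate number as a block (0.0733), with a trended variance prior (0.0781), with equal array medians (0.0974) and after cyclic loess (0.12, adjusted p = 0.266). H3-3B, the replacement H3, read 11.50 ± 0.07 against 11.55 ± 0.06 and H2AZ1, a variant H2A, 11.74 ± 0.13 against 11.81 ± 0.07 (SD, n = 3), and neither was called. After cyclic loess both were called higher, at 0.26 and 0.27. H2AX, whose protein marks DNA breaks, was at -0.24 ± 0.08 (SE) and just outside the threshold (adjusted p = 0.0517 in limma), and it was called lower without treated replicate 1 (0.0499), with a trended variance prior, with equal array medians and without dim genes. The number of rises was 2 without untreated replicate 2.

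**Figure D5:**
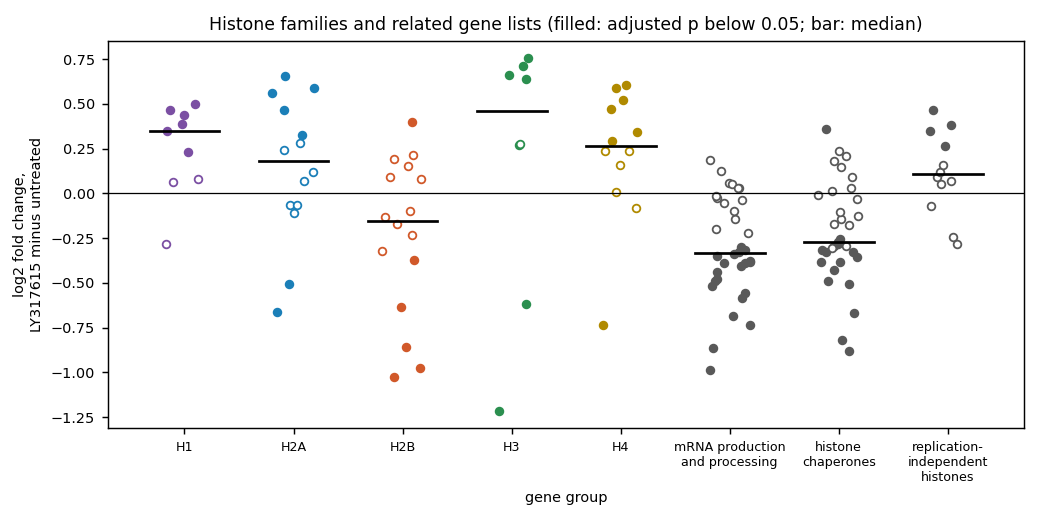
Log2 fold change of each gene (LY317615 minus untreated) in the 5 histone families and in 3 related gene lists; filled points passed an adjusted p of 0.05 in limma and black bars are medians. The medians lie above 0 for H1, H2A, H3 and H4, and at -0.15 for H2B, -0.33 for messenger production and processing and -0.27 for chaperones.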

How the data were processed

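The authors deposited normalised linear intensity values for each probe set in each sample. The tools in the submitters' processing notes are GCOS 1.4, RMA and Affymetrix Expression Console, with no order given. The step back from RMA's log2 scale is not given in the sources used here, nor is a genome build. Values were log2-transformed without an added constant.

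Of 33297 probe sets, 19460 were annotated to a single gene symbol. The brightest was kept per gene, giving 18417 genes. All were fitted with limma 3.58.1 in R 4.3.3 (two-sided, 3 untreated against 3 treated arrays, Benjamini-Hochberg over all genes). The code was tested on simulated data. Families and lists are described by counts and medians, with no test.

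The rule for naming genes took, per family, the brightest member, the 2 largest called rises and 2 largest called falls, a polyadenylated subset, fixed genes (SLBP, NPAT, H3-3B, H2AZ1, H2AX, CENPA) and the 2 largest called changes per list. CENPA was not analysed here. H2BC17, H1-2, H3C1 and others given more briefly fall outside it. Members and lists were chosen with earlier results of these data known. Promoter windows were matched by symbol for 55 of 60 members. Alternatives changed the scaling, the variance prior, array weights, the filter on dim genes, the probe-set rule, the thresholds and the arrays included. Plots were drawn with matplotlib 3.10.9 under Python 3.11.15.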

Additional observations from a re-analysis of the deposited data

How the results depend on the processing

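Of 33 called members, 23 (15 higher, 8 lower) kept their call in all 14 refits that tested them, and 10 lost it in at least 1. No called member changed sign. Of members not called, H1-10 passed without untreated replicate 1, H2AC25, H2AC8, H2BC14 and H2BC4 without treated replicate 1, H2BC12 without treated replicate 2, and H4C4 without treated replicate 3. Of 32 named genes, 22 kept their side of the threshold in every refit. Same-numbered arrays correlated at -0.02, 0.09 and 0.07 in their deviations from group means, and arrays of unlike number at -0.11 to 0.04. Values this few and weak cannot settle whether the numbers pair the samples. With the replicate number as a block, 20 members rose and 10 fell. The members' median was 0.14 with array medians set equal, 0.13 after cyclic loess and 0.16 without the dimmest 30%. Under these 3 settings H2A was at 0.12, 0.30 and 0.091. H2B was at -0.21 with medians set equal and -0.28 without dim genes. H1 was at 0.29 with medians set equal, H4 at 0.47 after loess and H3 at 0.28 without dim genes.

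At an adjusted p of 0.01, 14 members rose, and in lists 0 chaperones rose, 10 fell, and 2 replication-independent histones rose. At a log2 change of at least 1, 0 members rose and 2 fell, and each list had 0 calls. The chaperone rises numbered 3 with an intensity trend, 2 with array weights, 5 after loess and 2 with probe sets averaged, and its falls 7 after loess. Processing genes had 2 rises after loess. Replication-independent histones had 1 fall with an intensity trend, with medians set equal and without dim genes.

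Leaving out each array in turn gave 16 to 21 rises and 9 to 11 falls among members, and medians of 0.11 to 0.23 (all), 0.30 to 0.39 (H1), 0.094 to 0.20 (H2A), -0.19 to -0.11 (H2B), 0.41 to 0.49 (H3) and 0.25 to 0.29 (H4). Chaperones had 0 to 2 rises and 12 to 18 falls, processing genes 0 to 1 rises and 18 to 20 falls, and replication-independent histones 2 to 4 rises and 0 to 1 falls. Dim members had no detection call, which limits what can be said of them.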

Other observations

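Of 5 measured genes of other kinds that lie between the histone genes of the longest chromosome 6 run, the iron regulator HFE rose by 0.55 ± 0.09 (SE) and the ubiquitin ligase gene TRIM38 had a difference of -0.57 ± 0.08 (SE). The transporter genes SLC17A2, SLC17A3 and SLC17A4 were not called, at 0.20, 0.09 and 0.01.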
